A study of Mus with 4 samples.

Results

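The 46 genes described here encode the enzymes and assembly factors that copy DNA in S phase: the origin recognition complex, the loaders, subunits and activators of the replicative helicase, the DNA polymerases, the sliding clamp and its loader, the single-strand binding protein, the enzymes that finish the lagging strand, the enzymes that supply nucleotides and both E-type cyclins. They were chosen by name for these roles, with earlier results of these data known. All 46 were found among 21887 protein-coding genes of the RefSeq annotation of GRCm38. Below, the replication genes are these 46, and a second list is called other replication genes. The data come from TBX3 ChIP-Seq in mouse primary hepatocytes, with 2 TBX3 ChIP libraries and 2 Input libraries of sonicated chromatin that was not immunoprecipitated. The cells of both groups carried pT2-SVNeo-EF1-eGFP-P2A-Tbx3-HA, a transposon from which the EF1 promoter drives TBX3 with an HA tag together with eGFP, and the ChIP libraries were made with an anti-HA antibody. The protein measured was therefore the overexpressed, tagged one, and no library with a control antibody or from cells without the transgene was analysed here. Ages and strains of the animals are not given in the labels, and the track holds no transcript levels against which the cell type could be checked.

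In each cell cycle, the origin recognition complex marks the sites where replication can start, and CDC6 and CDT1 load the ring of MCM2 to MCM7 onto the DNA there. CDC45 and the GINS complex then join the ring to make the active helicase, the polymerases copy both strands, and PCNA holds them on the template. Many of these genes are switched on together at the start of S phase by the activating E2F factors, and E2F7 and E2F8 are repressors of the same programme. In hepatocytes these repressors are known for their part in polyploidy. TBX3 is a T-box factor that mostly represses transcription. The question for the replication genes was whether TBX3 ChIP signal stood at their ends or in their flanks, as it was measured at E2f7 and E2f8, the genes the study followed.

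The authors deposited 1 genome-wide track, in which each base has a score, the −log10 of the p-value of the ChIP reads over that base against the level expected from Input. A score of 3 is a p-value of 1 in 1000 at a single base, before any correction for the number of bases. The track gives no value per library, so no value below has a replicate error, no difference was tested across samples, and genes are not replicates. The number of reads behind each score and the expected level were inferred from the score itself. At the lowest expected level that the track uses, 2.43 reads, 7 reads gave a score of 2.44, 8 gave 3.02, 9 gave 3.65, 10 gave 4.31 and 11 gave 5.01. At this level neighbouring scores therefore differ by a single read. At a higher expected level the same reads score lower, as in Orc6, where 8 reads over 2.50 gave 2.94. The promoter score of a gene is its top score in the windows of 1 kb on each side of its ends. Both ends were used, since the gene table holds no strand to tell the start from the end. The flank score is the highest in the 10 kb outside the gene. The 1 kb of the flank next to the gene also lies in the promoter windows, so the same site can give both scores. A called region is a stretch of at least 200 bp with scores of at least 5, allowing breaks of 30 bp or less, and the genome held 125 of them.

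E2f7 and E2f8 are set beside the replication genes as genes near the top of the range. Promoter scores as high as theirs were found in 0.0548% and 0.119% of all genes. E2f7 had a promoter score of 22.79, with 31 reads over an expected 2.69, 174 bp inside one of its ends. E2f8 had a promoter score of 15.53, with 23 reads over an expected 2.43, 830 bp outside the gene. A called region lay within 1 kb of an end of each. With the expected level raised to the depth of its chromosome, E2f7 scored 19.75 and E2f8 stayed at 15.53. The track holds no read pairs, so each read pair counted once stands below for scaling down the inferred reads and the expected level alike. Under that setting the promoter scores were 11.83 and 8.14. With windows of 500 bp E2f7 kept 22.79 while E2f8 scored 3.65. In windows of that size Fen1 (5.01) and Orc4 (4.31) scored above E2f8, and Prim1, Pcna, Pold2 and Rpa1 also scored 3.65. The highest promoter score among the 46 genes was 5.01.

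Of the 46 replication genes, 15 had a promoter score of at least 3, which is 32.6% (95% Wilson interval 20.9 to 47.0%, for counting error only), beside 29.0% of all protein-coding genes. The share is close to that background. A promoter score of at least 5 was reached by 2 of 46, Fen1 and Mcm2, which is 4.35% beside 3.60% of all genes. The median promoter score was 2.44 in the replication genes and 2.44 in all genes, and the quartiles were 1.84 and 3.02 in both. No replication gene had a called region within 1 kb of an end, 0 of 46 (Wilson upper limit 7.71%), where 0.311% of all genes did, and that share of 46 genes is less than 1 gene. In reads, the highest point near the gene ends ranged from 5 to 11, with a median of 7, which is also the median of all genes.

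**Figure D1:**
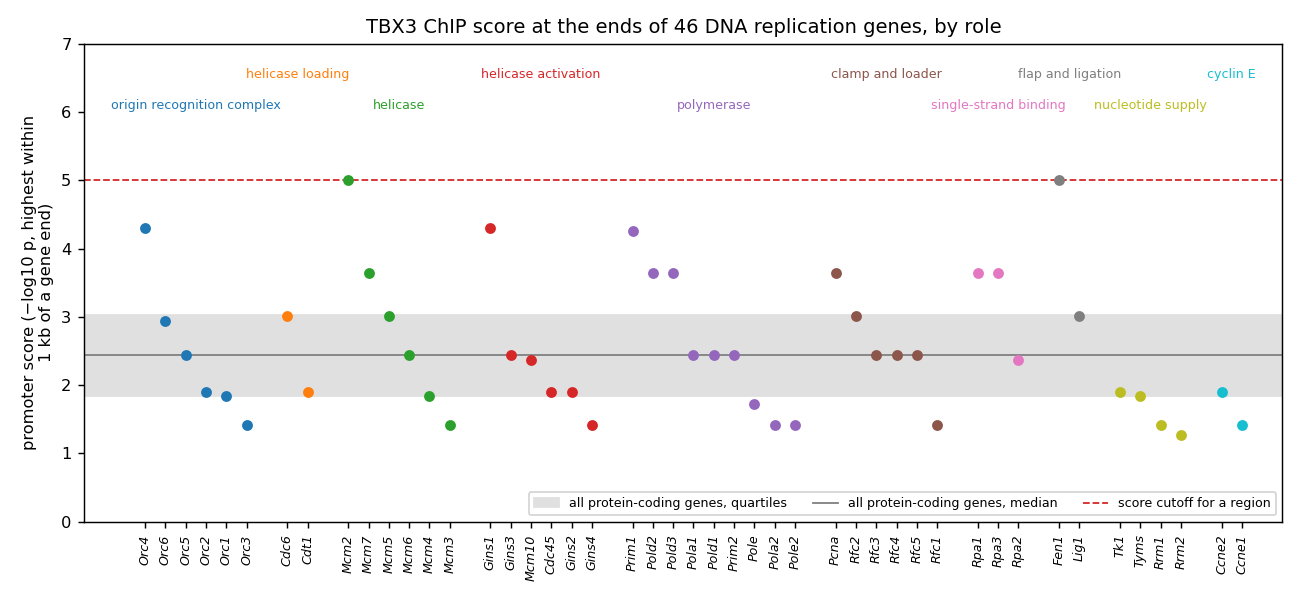
Promoter score (−log10 p, highest within 1 kb of a gene end) of each of the 46 DNA replication genes, 1 point per gene, grouped by role. The grey band and line are the quartiles (1.84 to 3.02) and the median (2.44) of all protein-coding genes, the dashed line is the score of 5 used to call regions, and only Fen1 and Mcm2 reach it, at 5.01.

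Among the 6 genes of the origin recognition complex, which binds origins through the whole of G1, 1 had a promoter score of at least 3, beside 29.0% of all genes. Orc4 stood at 4.31, with 10 reads over an expected 2.43, 187 bp inside its end. Orc6 scored 2.94, Orc5 2.44, Orc2 1.90, Orc1 1.84 and Orc3 1.42. The subunits of this complex thus spanned scores from below the lower quartile of all genes to a value that 7.20% of all genes reached. Of the helicase loaders, Cdc6 scored 3.02 and Cdt1 1.90. The summit of Cdc6 lay 15 bp inside one of its ends and held 8 reads over an expected 2.43.

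The MCM2 to MCM7 ring is the motor of the replicative helicase, and 3 of its 6 genes had a promoter score of at least 3, beside 29.0% of all genes, a difference of about 1 gene. Mcm2 scored 5.01, with 11 reads over an expected 2.43, 710 bp outside the gene. This score was reached by 789 of the 21887 genes and had a Benjamini-Hochberg adjusted p of 0.0687 over all bases of the track. With windows of 500 bp Mcm2 scored 1.00. With each read pair counted once it scored 2.79, the highest promoter score of the 46 genes under that setting. This value follows by arithmetic from the 11 reads, and 10 reads give the same, so it is no separate evidence. Mcm7 scored 3.65, with 9 reads over an expected 2.43, 880 bp inside one of its ends. An end of Ap4m1 lay in the same window, 789 bp from the summit. Mcm5 scored 3.02, Mcm6 2.44, Mcm4 1.84 and Mcm3 1.42. Genes for proteins that act in a single ring thus lay at both ends of the range.

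Of the 6 genes for helicase activation, Gins1, a subunit of the GINS complex, scored 4.31, with 10 reads over an expected 2.43. Its summit lay 974 bp outside the gene, close to the edge of the window, and with windows of 500 bp Gins1 scored 2.37. The other GINS genes had scores of 2.44 (Gins3), 1.90 (Gins2) and 1.42 (Gins4). Mcm10, a scaffold of the active helicase, scored 2.37, and Cdc45 scored 1.90.

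Of the 9 polymerase genes, 3 had a promoter score of at least 3, a share near the 29.0% of all genes. Prim1, the catalytic subunit of primase, which makes the RNA primers, scored 4.26, with 10 reads over an expected 2.47, 614 bp inside one of its ends. Among the 46 genes, Prim1 is the only one on chromosome 10. That chromosome had the highest inferred ChIP pileup of all, 1.41 times the median of the autosomes. With the expected level raised to that depth, the score of Prim1 was 3.06. Pold2 and Pold3, accessory subunits of polymerase delta, each scored 3.65, with 9 reads over an expected 2.43. The summit of Pold2 lay 303 bp inside the gene and that of Pold3 lay 811 bp outside the gene. Pola1, Pold1 and Prim2 stood at the median of all genes, 2.44, and Pole at 1.73, while Pola2 and Pole2 stood at 1.42.

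Pcna, the sliding clamp, scored 3.65, with 9 reads over an expected 2.43, 402 bp inside one of its ends. The window also held an end of Cds2, 559 bp from the summit. The clamp loader is a ring of the products of Rfc1 to Rfc5. Rfc2 scored 3.02, Rfc3, Rfc4 and Rfc5 each scored 2.44, and Rfc1, which encodes the large subunit, scored 1.42. Of the subunits of RPA, which coats single-stranded DNA, Rpa1 and Rpa3 scored 3.65, each with 9 reads over an expected 2.43, and Rpa2 scored 2.37. The summit of Rpa1 lay 464 bp outside the gene and 486 bp from an end of Smyd4 in the same window. That of Rpa3 lay 707 bp outside the gene and 561 bp from an end of Umad1 in the same window.

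Both genes that finish the lagging strand had a promoter score of at least 3, which 29.0% of all genes reach, and 2 genes are too few to describe a role. Fen1, the nuclease that removes the flaps left by primers, scored 5.01, with 11 reads over an expected 2.43. Its summit lay 254 bp inside one of its ends and nearer, 62 bp, to an end of Tmem258 in the same window. Fen1 lies on chromosome 19, whose inferred pileup was 1.19 times the autosome median, and scored 4.29 with the expected level raised to that depth. With each read pair counted once it scored 2.79, which its 11 reads fix. Lig1, which seals the nicks, scored 3.02, with 8 reads. Neither gene had a called region.

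Of the nucleotide supply genes 0 of 4, and of the E-type cyclins 0 of 2, had a promoter score of at least 3, beside 29.0% of all genes. Rrm2, the regulated subunit of ribonucleotide reductase, had the lowest promoter score of the 46 genes, 1.27, with 6 reads over an expected 3.34, 535 bp outside the gene, and 92.6% of all genes had a score as high. Rrm1, the large subunit, scored 1.42, with 5 reads over an expected 2.43, 997 bp inside the gene. Tk1, thymidine kinase, scored 1.90, and Tyms, thymidylate synthase, scored 1.84. Ccne2 scored 1.90 and Ccne1, the cyclin that drives entry into S phase with CDK2, scored 1.42, with 5 reads over an expected 2.43, 199 bp outside the gene. A score of 1.42 was shared by 8 replication genes, most of them of other roles, so the order among them carries no information.

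**Figure D2:**
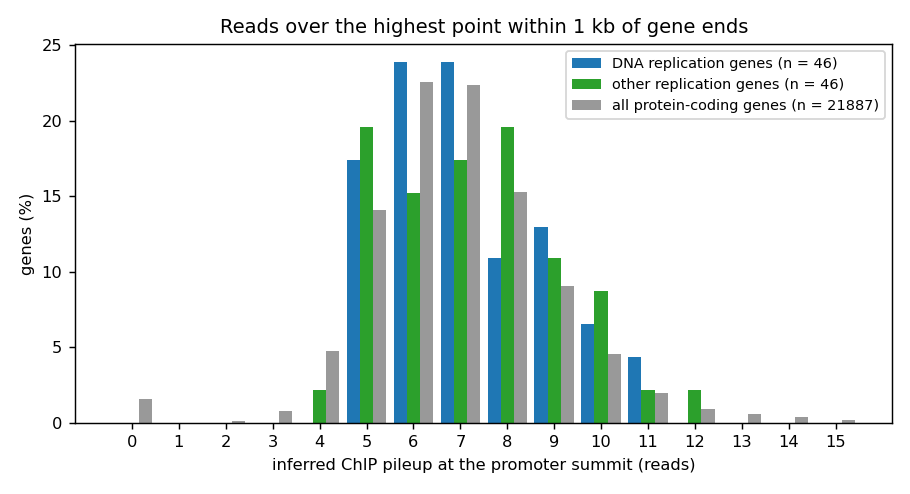
Percent of genes (vertical axis) by the inferred number of ChIP reads at the highest point within 1 kb of a gene end (horizontal axis), for the 46 DNA replication genes, 46 other replication genes and all 21887 protein-coding genes. Most genes of each list had 5 to 9 reads, no DNA replication gene had more than 11, and genes with more than 15 reads, among them Asf1b with 16, lie beyond the axis.

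By the positions taken, the promoter summits did not gather at the gene ends, which is a description with no test. Where bases shared the top score, the first in coordinate order was taken, in all genes alike. Some distances and sides given above and below rest on this rule. Mcm6, for example, was placed 990 bp from an end, though windows of 500 bp gave it the same score, 2.44. The median distance from the promoter summit to the nearest end was 588 bp in the replication genes and 497 bp in all genes, and 5 of 46 summits (10.9%) lay within 250 bp of an end, beside 26.2% in all genes. Of the 46 summits, 17 (37.0%) were inside the gene, beside 46.2% in all genes, and 29 were outside. An end of another protein-coding gene stood within 1 kb of either end of 20 of the genes, and in 13 of them it stood at the end that carried the summit, where the score cannot be assigned to one gene. Of the 26 genes without a neighbour at either end, 7 had a promoter score of at least 3, which is 26.9%, a share for which all genes were not filtered in the same way.

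A mean over the windows does not rest on a single highest base, and by this measure the replication genes stood somewhat above all genes, which was not tested. The mean inferred pileup within 1 kb of the ends, divided by the mean expected level there, had a median of 0.650 in the replication genes, 0.634 in 46 other genes of replication and its regulation and 0.592 in all genes, and 29 of 46 (63.0%) lay above the median of all genes. With each gene's ratio divided by the depth of its chromosome, the medians were 0.666 in the replication genes and 0.603 in all genes off chromosome Y, and 33 of 46 (71.7%) lay above. Single replication genes ranged from 0.367 in Rrm2 to 1.12 in Pold3. A ratio below 1 means fewer ChIP reads than the expected level, which never falls below the genome-wide value. Across the 2 kb on each side of the ends, the ratio of the replication genes moved between 0.547 and 0.785 in bins of 100 bp. In all genes, a mean over 21853 genes, it moved between 0.581 and 0.626. The outermost bins outside and inside the gene had 0.663 and 0.678 in the replication genes, beside 0.604 and 0.603 in all genes. The difference was thus also present away from the ends.

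**Figure D3:**
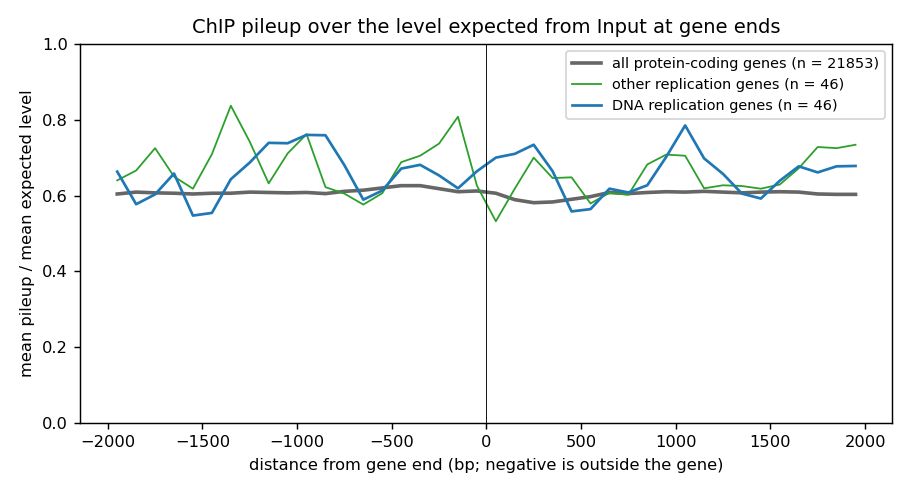
Mean inferred ChIP pileup divided by the mean expected level, in 100 bp bins up to 2 kb from gene ends (negative distances are outside the gene), for the 46 DNA replication genes, 46 other replication genes and all protein-coding genes. The line of the 46 DNA replication genes moves between 0.547 and 0.785 with its highest bin about 1 kb inside the ends.

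In the 10 kb outside the genes, the median score was 3.65 in the replication genes and 3.55 in all genes. A flank score of at least 5 was found in 1 of 46, or 2.17%, beside 10.3% of all genes, and a called region in the same 1 of 46, or 2.17%, beside 0.480% of all genes. That gene is Mcm2. Its region, at chr6:88902126-88902365, was 240 bp long with a summit score of 9.85, 17 reads over an expected 2.43. It was no longer called with each read pair counted once or at a score cutoff of 10. Both losses follow from its inferred reads and scores, the second from a summit below 10. The summit lay 3436 bp outside the end of Mcm2 and 34 bp from an end of Tpra1, the neighbouring gene, so which gene it belongs to cannot be told from its position. Flank scores this high were found in 109 genes, 0.498% of all. The next highest flank score was 4.89 at Pola2, the regulatory subunit of polymerase alpha, with 11 reads over an expected 2.50. Gins1, Lig1, Gins2, Orc1, Gins4 and Rfc1 followed at 4.31, with 10 reads each. The flank summit of Gins1 was also its promoter summit, so its flank score is the same signal.

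**Figure D4:**
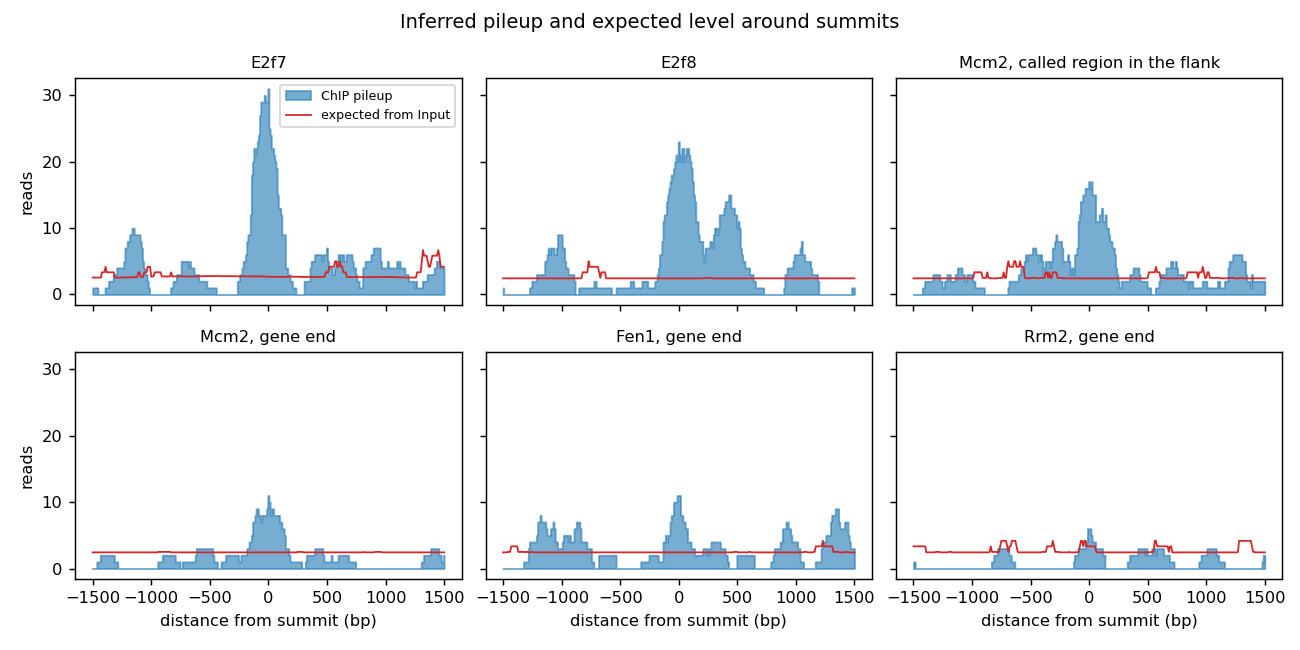
Inferred ChIP pileup (filled, reads) and expected level from Input (line, reads) within 1500 bp of 6 summits: E2f7, E2f8, the called region in the flank of Mcm2, and the promoter summits of Mcm2, Fen1 and Rrm2. The summits hold 31, 23, 17, 11, 11 and 6 reads in that order.

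Apart from Mcm2, the replication genes lay farther from any called region. The nearest to Gins4 was 19319 bp away, with a summit score of 24.08 and Golga7 as the gene with the nearest end. The nearest to Gins2 was 42430 bp away, with a summit score of 16.54. The nearest to Fen1 lay 85422 bp away and the nearest to Pola2 93642 bp away.

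**Figure D5:**
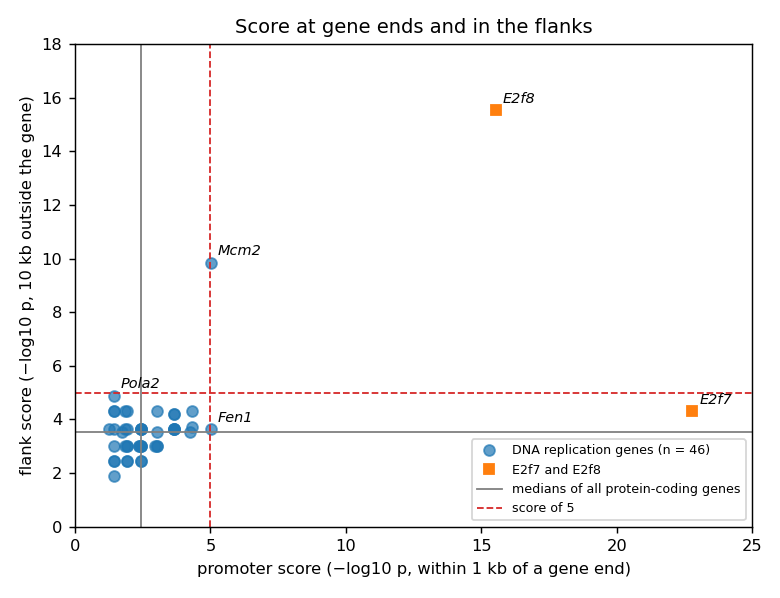
Promoter score (horizontal axis) against flank score (vertical axis), both −log10 p, for the 46 DNA replication genes (circles) and E2f7 and E2f8 (squares), with the medians of all protein-coding genes as grey lines and a score of 5 as dashed lines. Mcm2, at 5.01 and 9.85, is the only replication gene past 5 on both axes.

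Inside the genes no region was called, 0 of 46 beside 0.347% of all genes. The highest score inside a gene body was 6.30 in Prim2, the large subunit of primase, with 15 reads over an expected 3.34, 85175 bp from an end of this 216001 bp gene. Mcm3 and Pola2 followed with 5.75 each, 12 reads over an expected 2.43. The median body score was 3.65 in the replication genes and 3.02 in all genes. A longer gene offers more bases for a high score. The lengths had a median of 16153 bp and quartiles of 10006 and 34888 bp in the replication genes, and a median of 17169 bp and quartiles of 5671 and 44339 bp in all genes, and the part of length in the body scores was not tested.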

How the data were processed

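The series holds 2 TBX3 ChIP and 2 Input libraries of mouse primary hepatocytes. The labels name Bowtie2, SAMtools, MACS2 and the build mm10, with no versions. The authors deposited 1 MACS2 track of −log10 p-values of the ChIP pileup against Input. Which libraries entered it, and how duplicates and replicates were treated, is not given in the sources used here. The depth of each library is unknown, and the track had 0 other columns with values of single samples.

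From the deposited −log10 values, called regions were stretches of 200 bp or more with scores of 5 or more, across breaks of 30 bp or less. Gene positions came from RefSeq GRCm38. For each score, a whole number of ChIP reads and an Input level were sought whose Poisson probability matches it, with as few changes along the chromosome as possible, and 99.9998% of bases had such a pair. These steps were tested on simulated data. With 1 track there was no test across samples.

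The genes and lists were chosen with earlier results of these data known. All 46 genes are given by role. Given in full are the 10 highest promoter scores, which ties at 3.65 extend to 11 genes, and those with a called region. So are the 3 highest flank scores, the highest inside a gene and the 3 lowest promoter scores. Among the lowest, ties make the last 2 Rrm1 and Ccne1 among 8. A second list of 46 other replication genes is given by counts and its highest genes. The alternatives were window sizes, region settings, score limits, each read pair counted once, expected levels raised to chromosome depth, and genes without a neighbour's end. For each read pair counted once, the inferred reads were divided by 2 and rounded down at every base. The expected level was divided by 2 as well, and no pairs were read. The scripts ran under Python 3.11.15 with scipy 1.17.1, numpy 2.4.6, matplotlib 3.10.9, pandas 2.3.3 and numba 0.67.0.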

Additional observations from a re-analysis of the deposited data

How the results depend on the processing

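Values for all protein-coding genes stand in parentheses. Promoter scores of at least 3 were found in 9 with a window of 500 bp (17.7%), 23 with 2 kb (45.4%), 0 with each read pair counted once (2.29%), 13 (28.3% of 46) at chromosome depth (21.5%), a wider gap than in the report, and 7 of the 26 without a neighbour's end (29.0%, with all genes unfiltered), and a limit of 4 left 5 (8.16%). The median promoter score was 1.90 with 500 bp (1.90), 2.98 with 2 kb (2.62), 1.45 with pairs counted once (1.45), 2.35 at chromosome depth (2.23), 2.40 without neighbours' ends (2.44, likewise unfiltered) and 0.368 as a mean over the window (0.333). The median flank score was 3.02 over 5 kb (3.02) and 0.343 as a mean (0.345). A region within 1 kb of an end appeared in 1 gene, Mcm2, at a score cutoff of 3 (1.14%). The region in the flank of Mcm2 was lost at a cutoff of 10, leaving 0 genes (0.0959%), and with pairs counted once, leaving 0 genes (0.146%), and a flank of 20 kb gave 2 genes (0.626%). The values with pairs counted once follow by arithmetic from the inferred reads and are no separate evidence. No paired analysis was possible because samples have no values of their own in the track, and no library could be left out. Motif counts, windows at transcription starts alone and a background of CpG-rich promoters were not run, since no sequence or strand was used here. Depth limits what can be seen: at the lowest expected level a score of 5 takes 11 reads at a base, and a called region takes scores of 5 along 200 bp, so binding too weak for that gives no region.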

Other observations

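A second list held 46 other genes of replication and its regulation, among them checkpoint, chromatin assembly and nucleotide genes. Of these, 17 (37.0%) had a promoter score of at least 3, beside 29.0% of all genes, and 2 (4.35%) a score of at least 5, beside 3.60%. Their median was 2.44, as in all genes. Asf1b, a histone chaperone that hands new histones to the assembly factors behind the fork, had the highest promoter score of both lists, 8.98, with 16 reads over an expected 2.43. Wdhd1, which links the helicase to polymerase alpha, scored 5.75, with 12 reads over an expected 2.43. Its summit lay 202 bp outside the gene and 144 bp from an end of Socs4 in the same window. The next value, 4.31, was shared by Cdc7, Chaf1b, Mcm9 and Mtbp. No called region lay within 1 kb of an end, in the flank or inside any of the 46. A flank score of at least 5 was found in 6 (13.0%), beside 10.3% of all genes. In Asf1b and Wdhd1, which are among these 6, the flank summit was also the promoter summit.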
